A study of Rattus norvegicus with 8 samples.

Results

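The parathyroid genes Pth, Gcm2, Gata3, Casr, and Pthlh, together with the neurofilament gene Nefh, were measured in rat thyroid RNA. They are 6 of the 30560 gene identifiers in the count table, found by their symbols, and the transcript with the highest summed count was taken for each. Pth and Nefh were chosen by their measured levels in these 8 libraries, since the level of Nefh follows that of Pth, and Nefh also comes from the study's own comparison of irradiated and sham-irradiated neonates. The levels of Pth and Nefh are therefore given as a description, with no test, and the other 4 genes were taken for their known roles. The identifiers in the files are ENSRNOG00000014318 for Pth, ENSRNOG00000015008 for Gcm2, ENSRNOG00000019336 for Gata3, ENSRNOG00000002265 for Casr, ENSRNOG00000069267 for Pthlh, and ENSRNOG00000008716 for Nefh.

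Total RNA of the thyroid of male Wistar rats, an outbred laboratory strain, was sequenced with 2 libraries from each of 4 groups. In neonates, sham exposure (1w0Gy) or 4 Gy of X-rays to the neck (1w4Gy) was given at 1 week of age, and in adults sham exposure (4m0Gy) or the same dose (4m4Gy) at 4 months. Thyroids were taken about 8 weeks later, so the younger and older groups also differed in age at sampling. The study asked which thyroid genes change in the long term after irradiation of neonates and not of adults. The field held the whole neck while lead covered the rest of the body, and the RNA samples with the higher integrity scores were taken from a larger set of rats. The sources used here do not state whether the parathyroids were removed from the thyroids. Each library came from a different rat.

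The parathyroid glands sit on or within the thyroid, and their chief cells secrete parathyroid hormone, which raises blood calcium by acting on bone and kidney. Gcm2 and Gata3 are transcription factors needed for the gland to form and for Pth to be transcribed. The calcium-sensing receptor, encoded by Casr, lowers hormone release when calcium is high, and it is also made by the thyroid C cells, which secrete calcitonin. Pthlh encodes a related peptide that acts on the same receptor as parathyroid hormone, and Nefh encodes the heavy subunit of neurofilaments, the intermediate filaments of large axons.

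The annotated promoters of Pth, Casr, and Gata3 are shown, since only these genes had an entry. A link between these sequences and the measured levels was not tested. The sequences come from RefSeq on build GRCr8 and hold 300 bases, 250 before and 50 after the annotated start, and entries were found for 3 of the 6 genes, with none for Gcm2, Pthlh, and Nefh. The build to which the authors mapped the reads is not given in the sources used here. The Pth promoter lies at chr1:176945985-176946284 on the minus strand, that of Casr at chr11:77740364-77740663 on the plus strand, and that of Gata3 at chr17:73553298-73553597 on the plus strand. Capitals mark matches, on either strand, to the GATA core AGATAA, the GCM core ATGCGGG, the Maf core TGCTGA, the cyclic AMP response core TGACG, the nuclear receptor core AGGTCA, or the TATA core TATAAA.
Pth: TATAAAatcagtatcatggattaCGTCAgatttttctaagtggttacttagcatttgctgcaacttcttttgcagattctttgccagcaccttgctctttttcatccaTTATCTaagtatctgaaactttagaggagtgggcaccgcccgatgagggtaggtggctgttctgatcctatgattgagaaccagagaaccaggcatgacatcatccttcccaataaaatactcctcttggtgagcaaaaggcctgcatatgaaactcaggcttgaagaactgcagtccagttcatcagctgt
Casr: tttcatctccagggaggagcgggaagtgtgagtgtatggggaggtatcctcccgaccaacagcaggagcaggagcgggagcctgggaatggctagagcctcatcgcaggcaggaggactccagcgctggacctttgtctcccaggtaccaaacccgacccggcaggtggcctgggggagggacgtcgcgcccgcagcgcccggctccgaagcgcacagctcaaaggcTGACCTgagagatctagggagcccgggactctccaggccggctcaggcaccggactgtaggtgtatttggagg
Gata3: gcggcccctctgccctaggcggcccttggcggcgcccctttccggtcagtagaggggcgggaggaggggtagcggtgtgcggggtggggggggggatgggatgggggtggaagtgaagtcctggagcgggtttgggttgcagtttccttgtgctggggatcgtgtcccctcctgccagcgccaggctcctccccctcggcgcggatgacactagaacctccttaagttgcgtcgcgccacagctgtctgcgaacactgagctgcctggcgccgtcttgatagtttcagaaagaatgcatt

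The Pth window held 1 match each to the GATA, cyclic AMP response, and TATA cores, none of which overlapped. The TATA match lay at bases -250 to -245 from the annotated start, at the far edge of the window. The Casr window held 1 match to the nuclear receptor core, and the Gata3 window held no match. Among 33469 rat promoters of the same length, the GATA core was found in 11.6%, the cyclic AMP response core in 21.2%, the TATA core in 14.2%, the nuclear receptor core in 16.2%, the Maf core in 18.4%, and the GCM core in 1.33%. The GC content was 42.7% for Pth, 64.7% for Casr, and 65.0% for Gata3, with a median of 51.7% over all promoters. A match is a run of letters and not a measured binding site.

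Counts on genes ranged from 14835406 to 18138113 per library, and Tg, the thyroglobulin gene that marks thyrocytes, took 18.5% to 21.3% of them. Replicates were not copies of each other, since their counts gave chi-square values of 7.97 to 16.2 for each degree of freedom. Cdkn1a, a p53 target, had 248 to 280 counts in the sham libraries and 589 to 749 in the irradiated libraries, with no overlap. The library 4m4Gy replicate 2 stood apart for parathyroid genes. In that library 123 of 15684 genes, 0.784%, were under 0.5 times the lowest value of the other 7 libraries, against 17 to 65 genes in each of the others. These 123 included Pth, Gcm2, Gata3, and Nefh. This library had the lowest level of 5 of the 6 genes, and most of the fold changes, correlations, and list medians that rest on it are given with and without it.

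Levels between genes were compared on the deposited TPM scale, which is per transcript length. Pth had by far the highest level, with a median of 4668 TPM over the 8 libraries, a maximum of 7010 TPM in 4m0Gy replicate 1, and its minimum in 4m4Gy replicate 2. Median TPM was 16.5 for Casr, 13.6 for Gcm2, 7.75 for Gata3, 3.56 for Nefh, and 0.601 for Pthlh. The ranges of Casr (8.69 to 21.8 TPM), Gcm2 (1.06 to 22.6 TPM), and Gata3 (0.602 to 13.5 TPM) overlapped, as did those of Gata3 and Nefh (0.419 to 6.27 TPM), and only Pth was set apart from every other gene in all 8 libraries. Pth alone accounted for 0.0290% to 0.528% of the counts on genes in a library.

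In the following, levels are CPM, the counts scaled to the library size after TMM normalization. The level of Pth was 4651 and 3198 CPM (1w0Gy), 2795 and 1848 CPM (1w4Gy), 5306 and 3814 CPM (4m0Gy), and 5202 and 298 CPM (4m4Gy). Both 1w4Gy libraries were below both 1w0Gy libraries, whereas 4m4Gy replicate 1 lay at the level of the sham libraries and replicate 2 lay far below all others. The counts behind these levels were 4607 in 4m4Gy replicate 2 and 29909 to 86191 in the other 7 libraries, so counting error was small beside the spread. The lowest of the other libraries was 6.20 times the level of 4m4Gy replicate 2, and 4m4Gy replicate 1 was 17.4 times that level.

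Gcm2, the factor that sets parathyroid identity, stood at 81.2 and 50.1 CPM (1w0Gy), 48.6 and 37.4 CPM (1w4Gy), 77.0 and 47.7 CPM (4m0Gy), and 73.5 and 4.01 CPM (4m4Gy). Gata3 stood at 43.9 and 26.2 CPM (1w0Gy), 25.2 and 15.6 CPM (1w4Gy), 40.1 and 23.9 CPM (4m0Gy), and 40.3 and 2.07 CPM (4m4Gy). Both transcription factors showed the order of Pth within every group, replicate 1 above replicate 2, and both were lower in 1w4Gy than in 1w0Gy without overlap. The order of their group means differed from that of Pth, which was highest in 4m0Gy (mean 4560 CPM), since Gcm2 and Gata3 were highest in 1w0Gy (65.7 and 35.1 CPM). Between the 4m4Gy libraries Gcm2 differed 18.3-fold and Gata3 19.4-fold, close to the 17.4-fold of Pth, with 62 and 32 counts in replicate 2.

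Casr behaved otherwise in that library. Its level was 91.9 and 58.0 CPM (1w0Gy), 55.8 and 54.7 CPM (1w4Gy), 98.1 and 94.0 CPM (4m0Gy), and 92.3 and 40.9 CPM (4m4Gy). The lowest level was again that of 4m4Gy replicate 2, but it was only 2.26-fold below replicate 1 and 1.34-fold below the lowest of the other 7 libraries. Across those 7 libraries Casr varied 1.79-fold, less than Pth (2.87-fold), Gcm2 (2.17-fold), and Gata3 (2.82-fold).

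Pthlh was near the limit of detection, with 6 to 30 counts in a library. Its level was 1.62 and 1.56 CPM (1w0Gy), 1.06 and 0.618 CPM (1w4Gy), 0.388 and 0.645 CPM (4m0Gy), and 0.664 and 0.777 CPM (4m4Gy). The 1w0Gy libraries were the highest, and 4m4Gy replicate 2, the lowest library for the other 5 genes, was not low for Pthlh.

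Nefh had 28 to 401 counts in a library. Its level was 15.8 and 14.2 CPM (1w0Gy), 6.22 and 6.98 CPM (1w4Gy), 25.9 and 15.0 CPM (4m0Gy), and 20.97 and 1.81 CPM (4m4Gy). Both 1w4Gy libraries were below both 1w0Gy libraries, and the 4m4Gy libraries differed 11.6-fold. Within 1w4Gy the replicates were in the opposite order to those of Pth.

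**Figure D1:**
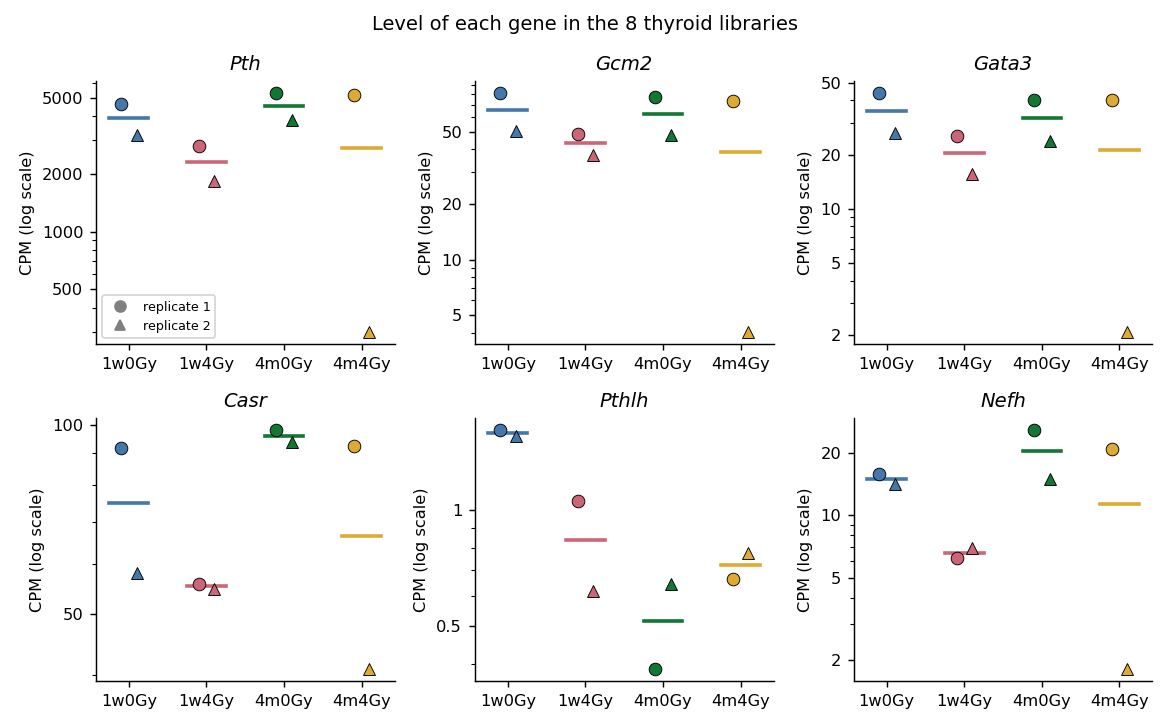
The level of each of the 6 genes in CPM, on a log axis, is plotted for the 4 groups, with a circle for replicate 1, a triangle for replicate 2, and a bar for the mean of the group. For Pth, Gcm2, Gata3, and Nefh the triangle of 4m4Gy lies far below every other point (298 CPM for Pth, against 1848 or more), whereas Casr falls less there and Pthlh does not.

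Likeness to Pth was described by the correlation of log2(CPM + 1) over the libraries. No p-value is given, since Nefh was chosen for following Pth in these same libraries. Over the 8 libraries Pearson's r with Pth was 0.991 for Gata3 (Spearman's rho 0.833), 0.988 for Gcm2 (rho 0.857), 0.938 for Nefh (rho 0.976), 0.849 for Casr (rho 0.929), and 0.0559 for Pthlh (rho -0.190). Ordered by r among 15683 genes, Gata3 was at place 4, Gcm2 at place 10, Nefh at place 58, Casr at place 153, and Pthlh at place 6291. The median r of all genes was -0.0297, and 95 genes had r over 0.9.

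These values rest in part on 4m4Gy replicate 2. Without it r was 0.935 for Gata3, 0.918 for Gcm2, 0.897 for Nefh, 0.883 for Casr, and -0.0801 for Pthlh over 7 libraries, and 125 genes had r over 0.9. Nefh was then at place 141, and 2 of the 4 parathyroid genes, Gata3 at place 65 and Gcm2 at place 94, stood before it. Leaving out the libraries farthest from the median of Pth, which were 4m4Gy replicate 2 and 1w4Gy replicate 2, gave r of 0.896 for Nefh, 0.896 for Casr, 0.877 for Gcm2, and 0.856 for Gata3 over 6 libraries. For deviations from the group means, which leave out any difference between groups, r was 0.996 for Gcm2, 0.995 for Gata3, 0.970 for Nefh (rho 0.50), 0.919 for Casr, and -0.155 for Pthlh. With 2 libraries a group, the deviations within a group are equal and opposite, so r rests on 1 value for each of the 4 groups. The largest of these deviations were those of 4m4Gy, so this r also leans on 4m4Gy replicate 2.

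**Figure D2:**
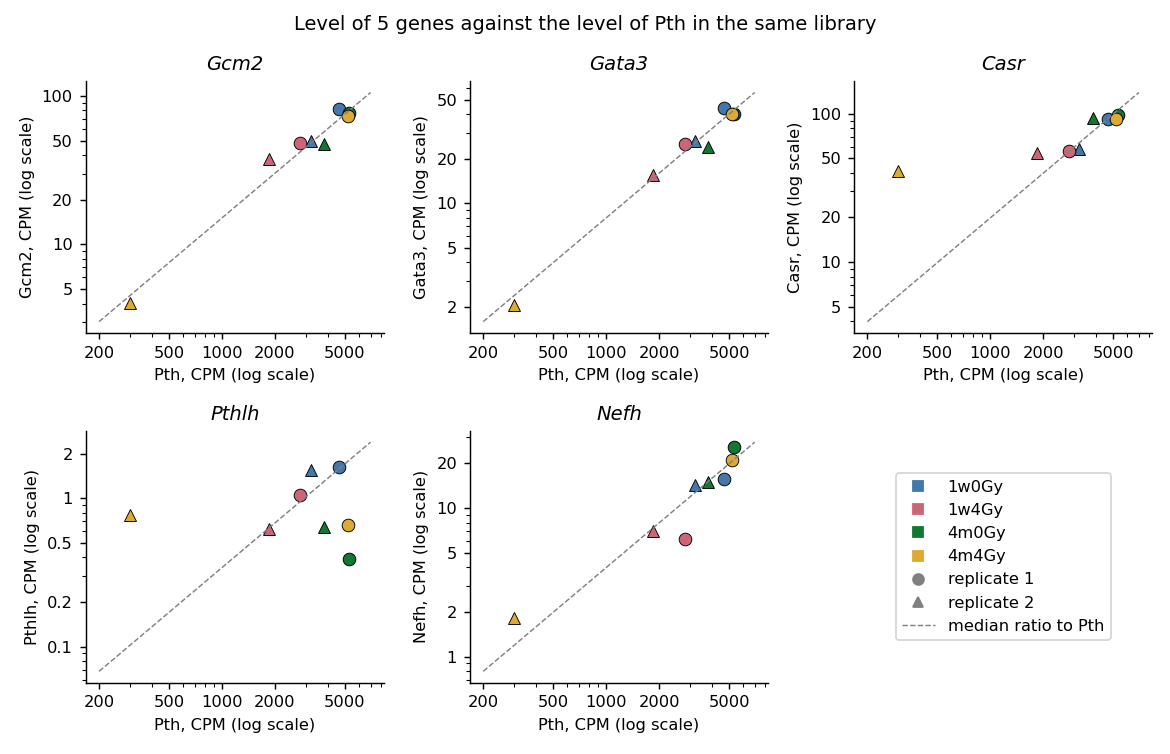
The level of 5 genes is plotted against that of Pth in the same library, both in CPM on log axes, with colors for the groups, shapes for the replicates, and a dashed line at the median ratio to Pth. Gcm2 and Gata3 stay near the line down to the lowest library, Nefh lies above it there, and Casr (40.9 CPM) and Pthlh (0.777 CPM) lie far above it.

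The ratio to Pth showed where the genes parted from it. For each 1000 CPM of Pth there were 12.5 to 20.3 CPM of Gcm2 in the 7 other libraries and 13.5 in 4m4Gy replicate 2. For Gata3 the ratio was 6.26 to 9.44 in the 7 libraries and 6.95 in 4m4Gy replicate 2, so both factors kept their proportion to Pth within the range of the other libraries. For Casr it was 17.7 to 29.6 in the 7 libraries and 137 in 4m4Gy replicate 2, far outside that range. The Nefh ratio, again as CPM for each 1000 CPM of Pth, was 3.40 and 4.45 (1w0Gy), 2.22 and 3.78 (1w4Gy), 4.88 and 3.92 (4m0Gy), and 4.03 and 6.08 (4m4Gy). It was lowest in 1w4Gy replicate 1 and highest in 4m4Gy replicate 2, and its 1w0Gy and 1w4Gy libraries overlapped. On the log2 scale the mean ratio of Nefh to Pth differed by -0.42 between 1w4Gy and 1w0Gy. The SD of single libraries over the 7, pooled across groups, was 0.37. It includes that difference and is not a spread between replicates.

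**Figure D3:**
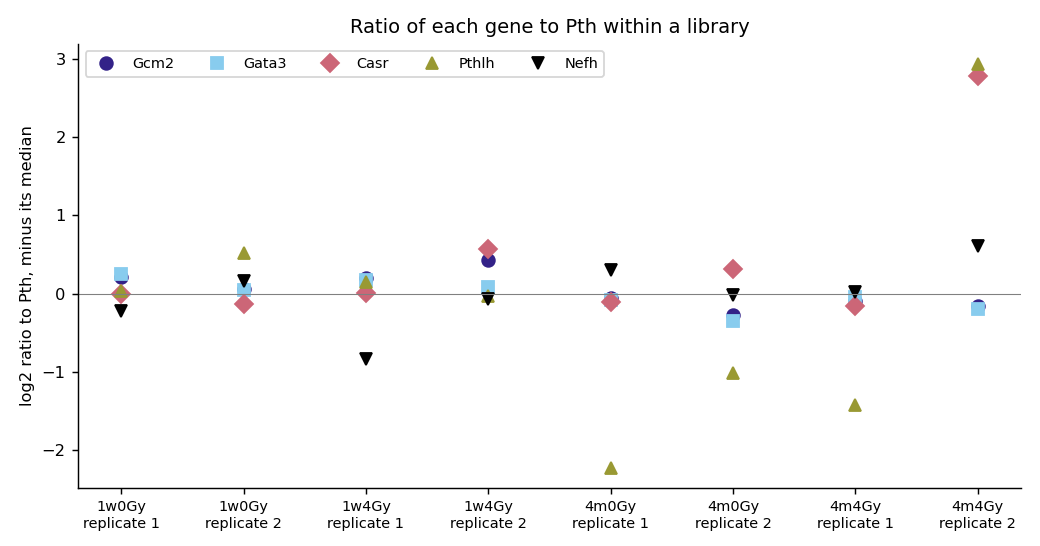
The log2 ratio of each gene to Pth in CPM, minus its median over the 8 libraries, is plotted by library, with a marker for each gene. The markers of Gcm2 and Gata3 stay within 0.5 of 0 in every library, Casr and Pthlh are high in 4m4Gy replicate 2, and the Nefh marker is lowest in 1w4Gy replicate 1.

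The genes most like Pth were named as the 10 with the highest r over the 8 libraries. They included, in order, Rhcg, Adgrg2, Tnfrsf11b, Gata3, Chga, an unnamed gene ENSRNOG00000012358, Rasal1, Kl, and Gcm2, with r from 0.996 to 0.988. Rhcg, an ammonium transporter gene, ranged from 68.5 to 168 CPM in the 7 libraries and was at 9.26 CPM in 4m4Gy replicate 2. Tnfrsf11b encodes osteoprotegerin, a decoy receptor that limits bone resorption, and ranged from 22.1 to 48.3 CPM against 4.79. Kl encodes klotho, the co-receptor for the bone hormone FGF23, and ranged from 22.6 to 47.0 CPM against 3.17. Chga encodes chromogranin A, a protein of secretory granules, and ranged from 1112 to 2448 CPM against 299. These genes had their lowest level in 4m4Gy replicate 2, between 3.72-fold and 9.33-fold below the lowest of the other 7 libraries. They were picked for likeness to Pth over the same 8 libraries, so a low level in that library was built into the choice. Without that library their r with Pth was 0.914 to 0.969.

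The 10 genes most like Nefh were Igdcc3, Col23a1, Hhatl, Tnmd, Lmo7, Chst5, A4galt, RGD1564899, P4ha3, and Kif13b, with r with Nefh from 0.988 to 0.965, and 0 of them were among the 10 most like Pth. Without 4m4Gy replicate 2 their r with Nefh was 0.905 to 0.970. Their own r with Pth was 0.880 to 0.976, given only over all 8 libraries. Tnmd, the tenomodulin gene of tendon and ligament, was at 36.3 and 34.0 CPM (1w0Gy), 20.9 and 15.9 CPM (1w4Gy), 66.9 and 40.5 CPM (4m0Gy), and 53.0 and 3.30 CPM (4m4Gy). Hhatl was at 6.21 and 4.52 CPM (1w0Gy), 3.11 and 2.84 CPM (1w4Gy), 10.1 and 5.51 CPM (4m0Gy), and 9.62 and 0.453 CPM (4m4Gy). In both genes, as in Nefh, the 1w4Gy libraries were below the 1w0Gy libraries and 4m4Gy replicate 2 was the lowest. Both were picked for likeness to Nefh over these libraries, so this pattern was built into the choice. Igdcc3, Chst5, RGD1564899, and P4ha3 had at most 2.59 CPM in every library, where few counts stand behind a correlation.

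The other neurofilament and nerve genes were set beside Nefh as a description. Nefm, the medium neurofilament subunit, had 2 to 11 counts in a library, with its lowest level, 0.129 CPM, in 4m4Gy replicate 2, and the light subunit Nefl had 0 to 5 counts. Ina, the internexin gene, was at 18.1 and 17.2 CPM in 4m4Gy, and Prph, the peripherin gene, at 5.38 and 5.70 CPM. Of the 8 genes of the neurofilament and axon list besides Nefh that passed the filter on low counts, 0 had r over 0.9 with Pth, and the same held for 0 of the 7 Schwann cell and myelin genes. Mbp, the myelin basic protein gene, was at 11.4 and 12.2 CPM in the 4m4Gy libraries. At 1 week 6 of the 7 tested genes of the axon list besides Nefh had a log2 fold change below 0, the direction of Nefh, and the median was -0.37 over these 7 and 0.13 over the 7 Schwann cell genes, with 0 calls in both, against 1.69e-05 for all genes. The Schwann cell list gave 1 call among all comparisons, Pmp22, which fell by 0.74 on the log2 scale with age (adjusted p 0.0212 by edgeR). Over all genes tested, 1.06% were called for age and 0.00651% for irradiation at 1 week.

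Irradiation at 1 week of age was compared over the 2 libraries of 1w4Gy and the 2 of 1w0Gy. All 6 genes were lower in both 1w4Gy libraries than in both 1w0Gy libraries, beside 17.8% of the 15359 genes tested that were lower without overlap and 17.7% that were higher. Pth and Nefh were chosen with this comparison known, and Pth, Gcm2, Gata3, and Casr moved together from library to library, so the 6 genes are not 6 separate observations. Mean Nefh was 15.0 ± 1.11 CPM in 1w0Gy and 6.60 ± 0.541 CPM in 1w4Gy, and mean Gcm2 65.7 ± 21.9 CPM and 43.0 ± 7.90 CPM (SD, n = 2). The log2 fold change was -0.76 (SE 0.25) for Pth and -1.19 (SE 0.16) for Nefh, both as a description.

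Among the other 4 genes, edgeR's quasi-likelihood test called 0, beside 0.00651% of all genes called, which was 1 gene, Cdkn1a, with an adjusted p of 0.0329, or 0.0811 and not called without edgeR's robust option. The log2 fold change was -0.61 (SE 0.27) for Gcm2 with an adjusted p of 0.881, -0.78 (SE 0.35) for Gata3 with an adjusted p of 0.884, and -0.44 (SE 0.22) for Casr with an adjusted p of 0.886. For Pthlh, with 10 to 30 counts, it was -0.92 (SE 0.39) with an adjusted p of 0.875. At an unadjusted p under 0.05 there was 1 of the 4, Pthlh, and the DESeq2 Wald test called 0 with 2 at that level. DESeq2 gave no adjusted p for Pthlh, so it could not have called that gene. Over all genes, 872 of 15359 (5.68%) were at that level with edgeR and 413 (2.69%) with DESeq2, which called 12. Leaving out 1w0Gy replicate 1, the highest of these 4 libraries for all 6 genes, brought the log2 fold change of Casr to -0.07, of Gcm2 to -0.22, and of Gata3 to -0.36.

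Irradiation at 4 months of age was compared in the same way. Both 4m4Gy libraries were below both 4m0Gy libraries for Casr, beside 18.7% of 15253 genes tested, and both were above them for Pthlh, beside 20.9%. For Pthlh this held in CPM by 0.664 against 0.645 at the closest, and the groups overlapped on the deposited TPM. For Pth, Gcm2, Gata3, and Nefh the groups overlapped, since 4m4Gy replicate 1 lay between the sham libraries for Pth, Gcm2, and Nefh and slightly above both for Gata3. The edgeR test called 0 of Gcm2, Gata3, Casr, and Pthlh, beside 0.0197% of all genes, and 0 of the 4 had an unadjusted p under 0.05 with either edgeR or DESeq2, beside 8.39% and 3.63% of all genes. The log2 fold change was -0.69 (SE 1.61) for Gcm2 with an adjusted p of 0.942 and -0.60 (SE 1.60) for Gata3 with an adjusted p of 0.952. For Casr it was -0.53 (SE 0.54) with an adjusted p of 0.869, and for Pthlh 0.46 (SE 0.53) with an adjusted p of 0.865. Pth gave -0.73 (SE 1.76) and Nefh -0.85 (SE 1.40).

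A single library decided these values. Without 4m4Gy replicate 2 the log2 fold change was 0.18 for Pth, 0.23 for Gcm2, 0.32 for Gata3, -0.07 for Casr, and 0.03 for Nefh, and without 4m4Gy replicate 1 it was -3.94 for Pth, -3.96 for Gcm2, -3.94 for Gata3, -1.24 for Casr, and -3.49 for Nefh. Casr was called only in the latter fit, with an adjusted p of 0.0318, where the 4m4Gy group is 1 library assumed to vary like the sham libraries. Over the other alternatives its adjusted p was at least 0.704.

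**Figure D4:**
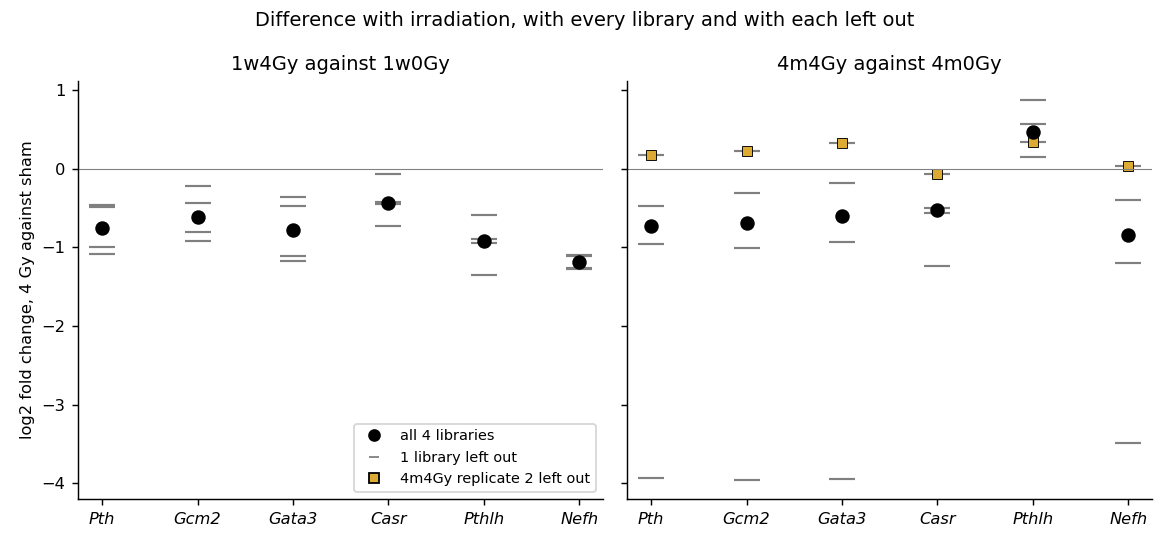
The log2 fold change of 4 Gy against sham is plotted for the 6 genes, at 1 week in the left panel and at 4 months in the right, with a black point for all 4 libraries, a grey bar for each fit with 1 library left out, and a square for the fit without 4m4Gy replicate 2. At 1 week every value lies below 0, and at 4 months the squares lie above 0 for every gene but Casr (0.18 for Pth, -0.07 for Casr), where the grey bars reach -3.96.

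The difference between the irradiation effects at the 2 ages was tested over all 8 libraries, which share their sham groups with the comparisons above. Of the 4 genes 0 were called, beside 0 of 15684 genes, 0%, and at an unadjusted p under 0.05 there were 0 of the 4 genes and 1430 of all genes with edgeR. DESeq2 called 26 of all genes and none of Gcm2, Gata3, and Casr, and it gave Pthlh no adjusted p. The difference, neonatal minus adult on the log2 scale, was 0.08 (SE 1.66) for Gcm2, -0.19 (SE 1.68) for Gata3, 0.09 (SE 0.62) for Casr, and -1.38 (SE 0.62) for Pthlh, with adjusted p-values of 0.995, 0.987, 0.982, and 0.551. With standard errors of this size for both transcription factors, a difference of several fold between the ages would not have been detectable.

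Sham-irradiated rats of both ages were compared by age. Casr was higher in both 4m0Gy than in both 1w0Gy libraries, beside 25.4% of 15364 genes tested, and Pthlh was lower in both, beside 24.8%. The groups overlapped for Pth, Gcm2, Gata3, and Nefh. The edgeR test called 0 of the 4 genes, beside 1.06% of all genes, and 1 of the 4, Pthlh, had an unadjusted p under 0.05 with edgeR, and 1 of the 4 with DESeq2, beside 17.8% and 9.56% of all genes. The log2 fold change of 4m0Gy against 1w0Gy was -1.60 (SE 0.40) for Pthlh with an adjusted p of 0.116, 0.36 (SE 0.24) for Casr with an adjusted p of 0.529, -0.08 (SE 0.39) for Gcm2 with an adjusted p of 0.943, and -0.14 (SE 0.41) for Gata3 with an adjusted p of 0.902. It was 0.22 (SE 0.25) for Pth and 0.44 (SE 0.27) for Nefh.

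The wider parathyroid pathway was described with 6 gene lists, by counts and medians and with no test of a list. Of the 8 genes for the hormone and its processing, all were above the filter. Besides Pth, 7 were tested for irradiation at 1 week and 0 were called, with a median log2 fold change of -0.26 against 1.69e-05 for all genes. Chga alone among the 6 genes besides Pth and Pthlh had r over 0.9 with Pth, and its log2 fold change was -0.61 (SE 0.27, adjusted p 0.875) at 1 week. The granule protein gene Chgb was at 106 and 117 CPM in the 4m4Gy libraries, and Furin, the convertase gene, at 217 and 273 CPM, so neither was low in replicate 2.

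Of the 11 parathyroid transcription factor genes in the counts, all were tested and 0 were called in any of the 4 comparisons, with a median of -0.35 at 1 week and -0.21 at 4 months, against 0.0091 for all genes at 4 months. Without 4m4Gy replicate 2 the median at 4 months was 0.23, with 10 of the 11 above 0, so its direction turned with that library. Besides Gcm2 and Gata3, 4 of the other 9 had r over 0.9 with Pth, among them Pax1 and Eya1, whose r was 0.801 and 0.722 without 4m4Gy replicate 2. Pax1 and Eya1 take part in the development of the pharyngeal pouches, from which the gland arises. Pax1 was at 11.0 CPM in 4m4Gy replicate 1 and 0.453 CPM, from 7 counts, in replicate 2. Eya1 was at 7.23 and 0.906 CPM there. Hoxa3 and Pax9, also pouch genes, were at 4.78 and 2.78 CPM and at 21.1 and 11.2 CPM.

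In the vitamin D and FGF23 list, 7 of 8 genes passed the filter, 0 were called, and the vitamin D receptor gene Vdr and Kl had r over 0.9 with Pth, 1 of them (Kl) without 4m4Gy replicate 2. Vdr, through which vitamin D lowers Pth transcription, was at 32.7 and 9.26 CPM in the 4m4Gy libraries, while its partner Rxra was at 20.7 and 24.8 CPM. Of the 8 tested calcium sensing genes 0 were called. Besides Casr, 0 of the other 7 had r over 0.9 with Pth, and Gnaq, a G protein through which the receptor signals, was at 23.2 and 23.6 CPM in 4m4Gy. The 4 genes that control Pth mRNA stability, among them Khsrp (81.0 and 82.1 CPM in 4m4Gy) and Hnrnpd (95.8 and 91.3 CPM), gave 0 calls and a median log2 fold change of -0.05 at 1 week. Pth1r, the receptor gene for both peptides, was at 3.04 to 5.44 CPM over the libraries, and Pth2r was at 0 counts in all 8.

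Markers of the other cell types in and around the gland were set beside these values. The summed level of the 10 C cell genes was 6404 CPM in 4m4Gy replicate 1 and 7362 CPM in replicate 2, the highest of the 8 libraries, with Calca, the calcitonin gene, at 5884 and 6769 CPM and Calcb at 34.2 and 37.0 CPM. At 4 months 10 of the 10 had a log2 fold change above 0, with a median of 0.43 and 0 calls, and 10 of 10 with a median of 0.31 without 4m4Gy replicate 2. The 7 fat genes were all below 0 at 4 months, with a median of -0.59, or -0.44 without that library, and 0 calls. Pth, Gcm2, and Gata3 shared this direction only with 4m4Gy replicate 2 in the fit. Without it their log2 fold changes were 0.18, 0.23, and 0.32. The summed level of the fat genes was lowest in 4m4Gy replicate 2, at 113 CPM against 127 to 421 CPM in the 7 other libraries. The part of the fat genes in the result was not tested. The 12 thyrocyte genes summed to 225689 CPM in 4m4Gy replicate 2 and 190004 to 221633 CPM in the 7 other libraries. The 7 skeletal muscle genes summed to 15.2 and 56.7 CPM in the 4m4Gy libraries and 8.03 to 91.5 CPM in the 7 libraries, with Acta1 at 5.44 and 15.4 CPM and Ckm at 2.59 and 8.68 CPM in 4m4Gy. The low parathyroid genes of 4m4Gy replicate 2 thus stood beside C cell genes that were not low. In bulk tissue, fewer parathyroid cells in a sample and less RNA of these genes per cell cannot be told apart.

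In the comparison at 1 week, the 7 fat genes summed to 421 and 332 CPM in 1w0Gy and 235 and 232 CPM in 1w4Gy. All 7 had a log2 fold change below 0, with a median of -0.84 and 0 calls, and all 6 tested muscle genes were also below 0, with a median of -0.75, although the summed muscle level was 13.98 and 91.5 CPM in 1w0Gy and 52.3 and 8.03 CPM in 1w4Gy. Adipoq, the adiponectin gene, was at 116 and 74.8 CPM in 1w0Gy and 58.4 and 64.3 CPM in 1w4Gy, and Plin1, the perilipin gene, was at 64.6 and 55.2 CPM and at 34.3 and 32.5 CPM. The C cell genes summed to 3590 and 2295 CPM in 1w0Gy and 2078 and 2907 CPM in 1w4Gy, and 8 of the 10 had a log2 fold change below 0, with 0 calls. An unadjusted p under 0.05 by edgeR was found for 6 of the 7 fat genes, 0 of the 6 muscle genes, and 3 of the 10 C cell genes. Over all genes tested the share at that level was 5.68%. Fat genes thus lay in the direction of the parathyroid genes in this comparison, and their part in it was not tested. The thymus, lymphocyte, and cartilage and trachea lists summed to at most 15.3, 4.70, and 0.777 CPM in any library, and their defining genes Foxn1 (at most 1 count), Dntt (at most 8), Col2a1 (at most 11), and Acan (at most 1) were near 0. Rag1, also on the thymus list, had 21 counts (1.30 CPM) in 1w4Gy replicate 2 and at most 0.0622 CPM in every other library. The highest level of Dntt, 0.494 CPM, was in that library too. Cd79a reached 1.48 CPM.

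**Figure D5:**
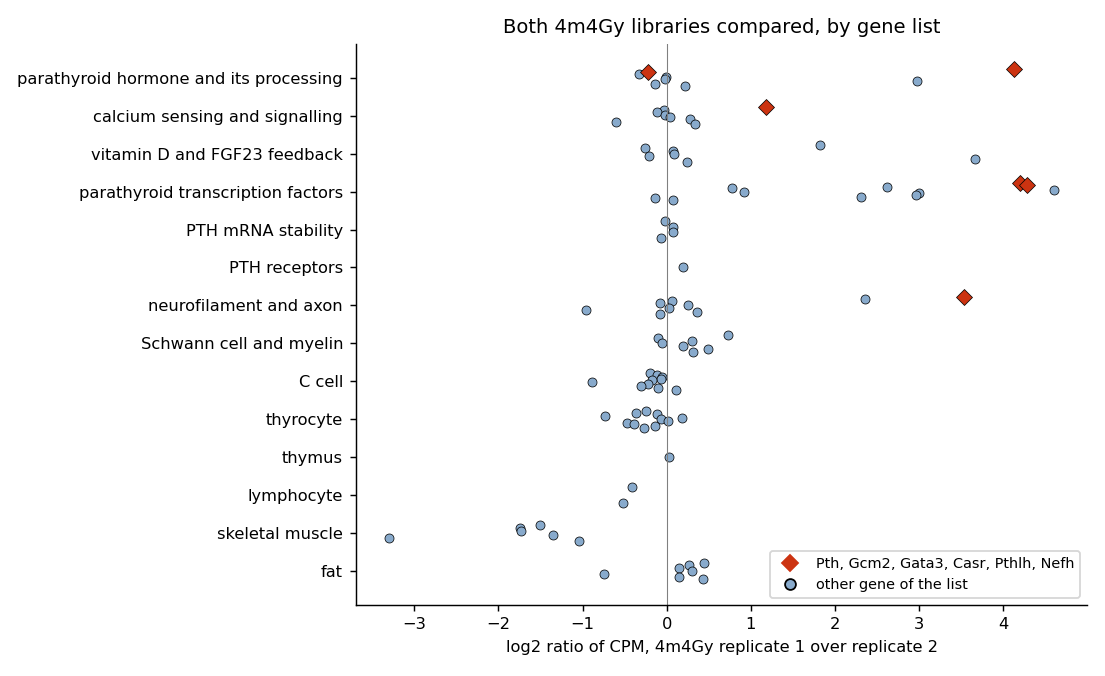
The log2 ratio of CPM in 4m4Gy replicate 1 over replicate 2 is plotted for every list gene that passed the filter, 1 row for each list, with diamonds for the 6 genes described here and circles for the others. Pth, Gcm2, Gata3, and Nefh lie above 3 with Kl, Pax1, and a few other parathyroid list genes at high values, Casr lies between 1 and 2, and the C cell and thyrocyte genes lie near or below 0.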

How the data were processed

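RNA-Seq of 8 rat thyroid samples was used, with 2 in each of 4 groups taken from the labels. Per the labels and the submitters' processing notes, libraries were made with a directional kit, mapped with HISAT2 2.2.1, and counted with featureCounts 2.0.0. The genome build and the strand setting are not given in the sources used here. The authors deposited raw counts for 54991 transcripts of 30560 gene identifiers and TPM values, which they scaled by transcript length and library, together with the transcript lengths, and RPKM that were not used. Counts per library were 14835406 to 18138113, and at 2 samples a group the spread between samples limits the precision.

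The transcript with the highest summed count was taken for each gene, since transcripts of a gene largely hold the same reads. edgeR 4.0.16 (R 4.3.3) was run with TMM normalization, filterByExpr, a robust quasi-likelihood fit, and Benjamini-Hochberg adjustment over all genes tested. Calls needed an adjusted p under 0.05, and in both irradiation comparisons also a fold of more than 1.5 or less than 0.5. Standard errors were derived from the quasi-likelihood F. CPM used a pseudocount of 1 on the log2 scale. Each irradiation comparison used its own 4 samples and the interaction all 8. Alternatives were DESeq2 1.42.0, other normalizations, filters, transcripts, and pseudocounts, a replicate block, all samples in a fit, no fold limit, and each sample left out. The planned design did not name the robust option. It was made the main setting after the data were seen, because its counts of calls matched those of an earlier analysis of these files, and the fit without it is given as an alternative. Scripts were tested on simulated counts.

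The members and the 15 gene lists were chosen with earlier results of these data known. Genes named were the 6 members, the 10 genes most like Pth and the 10 most like Nefh, the first 2 genes of each list in the counts, any parathyroid list gene called, Tg, and Cdkn1a. The comparisons of the low library and the other list genes given with values (Chgb, Furin, Pax1, Eya1, Hoxa3, Pax9, Nefl, Ina, Prph, Pmp22, Rag1) were chosen after their values were seen. Some of the genes this rule selects are not reported here.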

Additional observations from a re-analysis of the deposited data

Results flagged for a closer look

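Pthlh was marked because its direction differed between the ages. Both 1w4Gy libraries, with 17 and 10 counts, were below both 1w0Gy libraries, with 30 and 27 counts. The 4m4Gy libraries had 10 and 12 counts and the 4m0Gy libraries 6 and 11. Both 4m4Gy libraries were above both 4m0Gy libraries in CPM but not in counts, with 0.664 against 0.645 CPM at the closest. On the deposited TPM the groups overlapped, with 0.558 in 4m4Gy replicate 1 and 0.565 in 4m0Gy replicate 2. The difference between the effects was -1.38 (SE 0.62) on the log2 scale, with an unadjusted p of 0.0506 and an adjusted p of 0.551 by edgeR, so it was not called. The adjusted p was 0.288 to 0.856 with each library left out and 0.541 to 0.686 under the other alternatives that gave one.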

How the results depend on the processing

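Of the 4 genes with a test, 0 were called in any comparison, and this held under every alternative except that leaving out a library at 4 months gave 0 to 1 calls, the 1 being Casr without 4m4Gy replicate 1. The correlation of Nefh with Pth was 0.902 with a pseudocount of 5, 0.908 on the deposited TPM, 0.970 for deviations from the group means (rho 0.50), 0.896 without the 2 farthest libraries, and 0.897 to 0.981 with each library left out. Leaving out a library turned the direction of 7 fold changes of these 4 genes. At 4 months the range was -3.96 to 0.23 for Gcm2 and -3.94 to 0.32 for Gata3. For the difference between the ages it was -0.84 to 3.34 for Gcm2, -0.38 to 0.79 for Casr, and -1.11 to 3.16 for Gata3, with both ends set by the 4m4Gy libraries. For age it was -0.46 to 0.31 for Gcm2 and -0.56 to 0.28 for Gata3. Pthlh had no value at 4 months, for age, or for the difference between the ages when at least 10 counts were required in every sample. DESeq2 gave Pthlh no adjusted p in any comparison, so its lack of calls speaks only for Gcm2, Gata3, and Casr. Over all genes the calls ranged from 0 to 45 at 1 week, 0 to 52 at 4 months, 0 to 26 for the difference between the ages, and 12 to 743 for age, against 1, 3, 0, and 163. Without the robust option, which the planned design did not name, they were 0, 0, 0, and 111, Cdkn1a was not called at either age (adjusted p 0.0811 and 0.104 by edgeR), and 3 of the 4 genes instead of 1 had an unadjusted p under 0.05 at 1 week.

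Samples with the same number shared only that number, since the correlations of their deviations between groups ran from -0.24 to 0.21. With the replicate block the calls over all genes were 10, 12, 0, and 14 in the same order, 0 of the 4 genes were called, and the difference between the ages for Gata3 was 0.15. Gata3 at 1 week then had an adjusted p of 0.0286 by edgeR at a log2 fold change of -0.78, which did not pass the fold limit. With 2 rats a group, the spread between rats limits every test, and for Pthlh and Nefm the counts do so as well.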
